A study of Homo sapiens with 6 samples.

Results

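Divergent transcripts are long noncoding RNAs (lncRNAs) that start beside a gene and run away from it on the opposite strand. Current nomenclature gives such an RNA the symbol of its coding neighbour followed by -DT, and the term DT lncRNA is used for it here. Of 58051 genes in the count table, 578 carried such a symbol once their Ensembl identifiers had been mapped to GENCODE 44. A DT lncRNA was studied where its CPM (counts per 1e6 counts of the library) was above 1 in at least 3 libraries. This left 265 DT lncRNAs among 16974 genes that met the same limit. The remaining 313 were not tested: 54 had no count in any library and 259 had counts that stayed under the limit. The library that decides this, the third when ranked from the highest, had a CPM of 1.00 for DCTN6-DT and 1.03 for PPM1K-DT, just inside the limit, and 0.999 for TMEM30A-DT and 0.991 for TP53RK-DT, just outside it.

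Most active mammalian promoters are transcribed in both directions. RNA polymerase II that leaves towards the gene is carried through by splicing signals, whereas polymerase that leaves the other way usually meets an early polyadenylation signal and stops. The upstream RNA is then destroyed in the nucleus by the RNA exosome, a ring of subunits with ribonucleases attached, which adaptors bring to capped, prematurely ended RNAs. The annotated DT lncRNAs are the upstream transcripts that last long enough to be recorded as genes, and they remain mostly nuclear and of low abundance.

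RNA abundance was measured by RNA-seq of rRNA-depleted total RNA in DLD-1, a human colorectal adenocarcinoma line. Both alleles of TPR, a protein of the nuclear basket, which hangs from the nuclear pore into the nucleoplasm, had been tagged with an auxin-inducible degron (AID) and the fluorescent protein NeonGreen, and the plant ligase subunit TIR1, which destroys AID-tagged proteins when auxin is present, was expressed from the RCC1 locus. The line came from genotyped clones. Leptomycin B (LMB), an inhibitor of the nuclear export receptor CRM1, was given to both groups at 200 nM for 3 h by the incubation time on the labels, while the sample titles of both groups name 2 h. One group, LMB+auxin, also received 1 mM auxin for the last 2 h, and the other is called LMB. There were 3 libraries in each group. All tests compare LMB+auxin with LMB, also written as with and without auxin. No library without LMB and none with auxin in untagged cells was analysed here, so the auxin compound and the loss of TPR cannot be told apart.

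Library totals ran from 28261903 to 35992425 counts. The epithelial markers EPCAM, CDH1, KRT8, KRT18, KRT19 and VIL1 were expressed, at mean levels from 19.0 (VIL1) to 3441 CPM (KRT8). The intestinal marker CDX1 had a single count in 1 library and was otherwise at 0. Markers of leukocytes (PTPRC), fibroblasts (COL1A1) and endothelium (PECAM1) had mean levels from 0.0217 to 0.515 CPM. The degron acts on TPR protein, whose level was not analysed here, and TPR mRNA is no measure of depletion. The mRNA was at 166 ± 12.02 CPM without auxin and 188 ± 3.88 CPM with auxin (mean ± SD, n = 3), higher in 3 of 3 pairs without overlap of the groups. Its log2 fold change was 0.17 ± 0.07, a size under 1.3-fold, with an adjusted p of 0.954 by edgeR, and of 0.0133 with the replicate number as a block. In bulk libraries, fewer cells holding an RNA and less of it per cell cannot be told apart. Libraries with the same replicate number deviated together, and each fit was therefore also run with the replicate number as a block.

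The position of the DT lncRNAs fitted their name. The annotation held the gene named in the symbol for 264 of the 265, the exception being ARHGAP11B-DT, and 263 of these pairs lay on opposite strands. Taking the start of each gene's canonical transcript, the median distance between the starts was 167.5 bases, with an interquartile range of 90.5 to 331 bases. In 225 pairs the starts lay 0 to 1000 bases apart, in 21 they lay further apart, and in 18 they crossed, so that the first parts of both transcripts overlap. The coding gene in the symbol is called the partner here, and it was tested in 263 pairs, EFCAB6 being the exception. These hold 262 partner genes, since TNFRSF10A is the partner of 2 DT lncRNAs with the same symbol. The DT lncRNAs had a median of 3 merged exons and 2099 exonic bases (range 254 to 35212), and 84 had a single exon.

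The DNA between the starts of 5 pairs is shown because these pairs carry the comparisons described next. The first 3 DT lncRNAs were the ones called lower with the replicate block. In the fits without the block, SLC2A1-DT had the smallest p among those that were higher. There, KDM7A-DT had the smallest p for a change relative to its partner. Each run lies on chromosome strand +, which is the strand of all 5 DT lncRNAs, so the DT lncRNA is read to the right and the partner to the left. Only bases outside annotated exons of coding genes are shown, up to 300, from GRCh38. Other isoforms of BTG1-DT and SLC2A1-DT have first exons that reach into the stretch shown. Capitals mark every match, on either strand, to 6 promoter motifs. The CCAAT box was searched by the letters of its name and the GC box as GGGCGG. The core bound by ETS factors was searched as CCGGAA. For the TATA box the letters were TATAAA. The core bound by the activator NRF1 was searched as TGCGCA. The cyclic AMP response element was searched as TGACGTCA. Matches of different motifs may overlap.
MRNIP-DT at chr5:179858861-179859012: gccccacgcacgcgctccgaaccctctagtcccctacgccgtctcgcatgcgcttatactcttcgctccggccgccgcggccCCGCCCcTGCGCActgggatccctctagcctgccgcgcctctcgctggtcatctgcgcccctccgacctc
BTG1-DT at chr12:92145874-92146173: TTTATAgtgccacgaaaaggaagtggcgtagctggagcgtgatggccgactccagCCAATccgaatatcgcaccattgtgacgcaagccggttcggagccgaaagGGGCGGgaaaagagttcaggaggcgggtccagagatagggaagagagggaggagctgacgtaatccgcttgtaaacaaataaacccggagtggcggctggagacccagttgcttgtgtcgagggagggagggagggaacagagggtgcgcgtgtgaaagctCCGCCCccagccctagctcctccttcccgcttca
CEBPA-DT at chr19:33302546-33302845: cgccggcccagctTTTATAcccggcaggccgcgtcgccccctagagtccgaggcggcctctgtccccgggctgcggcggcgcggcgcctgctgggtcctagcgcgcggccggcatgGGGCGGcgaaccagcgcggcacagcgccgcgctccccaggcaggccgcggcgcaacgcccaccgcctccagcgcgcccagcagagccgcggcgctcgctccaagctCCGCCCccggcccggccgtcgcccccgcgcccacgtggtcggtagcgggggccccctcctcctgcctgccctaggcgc
SLC2A1-DT at chr1:42958894-42959077: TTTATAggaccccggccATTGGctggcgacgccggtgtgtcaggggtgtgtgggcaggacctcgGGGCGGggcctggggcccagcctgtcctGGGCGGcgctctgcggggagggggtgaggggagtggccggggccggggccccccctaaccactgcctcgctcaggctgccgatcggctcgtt
KDM7A-DT at chr7:140176984-140177183: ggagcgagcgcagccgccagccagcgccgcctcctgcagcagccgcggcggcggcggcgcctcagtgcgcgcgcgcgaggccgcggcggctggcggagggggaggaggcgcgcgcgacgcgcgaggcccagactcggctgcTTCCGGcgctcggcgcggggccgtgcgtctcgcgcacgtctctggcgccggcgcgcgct
A TATA box faced the partner in the pairs of BTG1, CEBPA and SLC2A1, at 28, 25 and 26 bases from the partner's start, and no TATA box match faced the DT lncRNA in these stretches. The stretch beside MRNIP held 1 GC box and 1 NRF1 core, and that beside KDM7A held 1 ETS core.

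Across all DT lncRNAs, levels were slightly lower in LMB+auxin. The median log2 fold change was -0.09, a difference of -5.91%, with an interquartile range of -0.20 to 0.02. Of the 265, 185 (69.8%) were lower and 80 were higher, whereas 50.8% of all tested genes were lower and their median was -0.0027. None of the 265 passed the edgeR quasi-likelihood test without the block (adjusted p under 0.05 and at least 1.3-fold), and 7, all lower, had p under 0.05 before adjustment. DESeq2 also called 0, with 3 at that unadjusted p. Over all tested genes, edgeR without the block called 0.00589%. The share of DT lncRNAs at an unadjusted p under 0.05 was 2.64%, below the 4.37% of all tested genes. Of the 741 genes in that background share, 568 were lower, so it leaned the same way.

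The shift was seen in each replicate pair, but it was smaller than the spread between replicates. The median over DT lncRNAs of LMB+auxin minus LMB was -0.07, -0.08 and -0.06 (log2) in pairs 1, 2 and 3, with 170, 174 and 165 DT lncRNAs lower. In all 3 pairs, 78 (29.4%) were lower and 22 (8.3%) were higher, beside 20.5% and 21.3% of all tested genes. Each library was also summarised by the median deviation of its DT lncRNAs from their own means, in log2 units. For replicates 1, 2 and 3 that median was 0.15, -0.05 and 0.02 without auxin, and 0.09, -0.12 and -0.03 with auxin. The groups overlapped, since LMB+auxin replicate 1 lay above LMB replicates 2 and 3. Replicate 1 exceeded replicate 2 by 0.21 in LMB and by 0.20 in LMB+auxin, more than the shift within any pair. Of the DT lncRNAs, 173 (65.3%) were higher in replicate 1 than in replicate 2 in both groups, against 39.7% of all tested genes. This median fold change depended on single libraries. Leaving out LMB replicate 1 or LMB+auxin replicate 2 gave -0.02 and -0.03, and leaving out LMB replicate 2 or LMB+auxin replicate 1 gave -0.14 and -0.15.

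**Figure D1:**
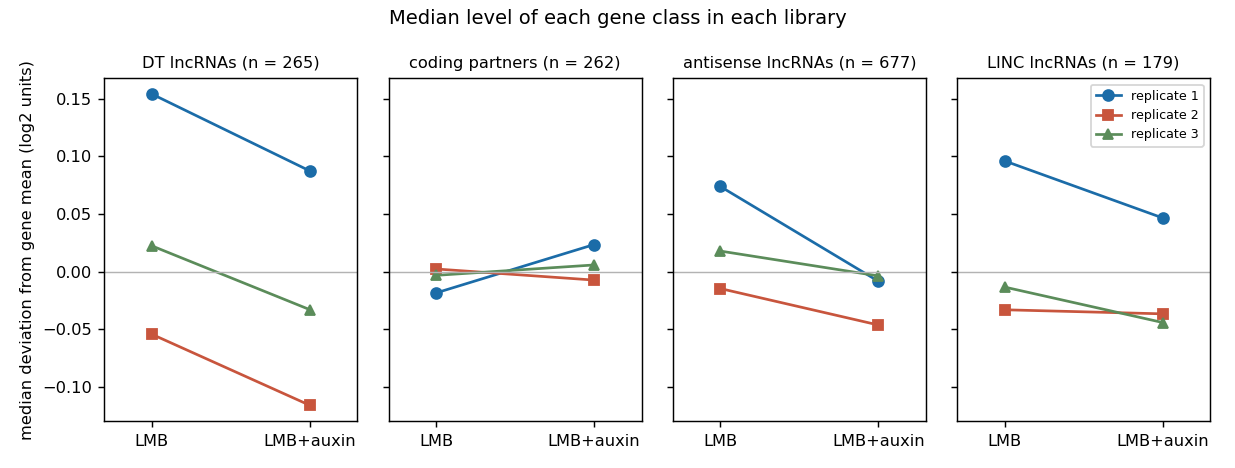
Each panel plots, for 1 class of genes, the median deviation of log2 CPM from each gene's own mean (vertical axis, log2 units) in each of the 6 libraries, and lines join libraries with the same replicate number. The DT lncRNA lines run downward in all 3 pairs and are further apart from each other than their ends are, while the partner lines stay within 0.03 of 0.

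Other lncRNA classes were also lower on balance, by less. The median log2 fold change was -0.04 for 677 antisense lncRNAs (symbols ending in -AS and a number), with 60.7% lower. It was -0.06 for 179 intergenic lncRNAs (symbols starting with LINC), with 57.5% lower. Over all 2587 tested lncRNAs without a DT symbol, which include both of these classes, it was -0.03, with 58.1% lower. Coding genes had a median of 0.01, with 47.6% of 12663 lower. The difference between these classes was not tested. Genes of these classes share libraries, and replicate 1 exceeded replicate 2 in the antisense and intergenic classes too (by 0.08 and 0.14 in LMB).

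With the replicate block, 3 DT lncRNAs fell and none rose. The block called 0.89% of all tested genes lower and 0.3% higher, so 3 of 265 is close to the background share. At an unadjusted p under 0.05 the block fit had 36 DT lncRNAs (13.6%), of which 30 were lower and 6 higher, against 19.9% of all tested genes. That background of 3378 among 16974 genes held 2002 lower and 1376 higher, so lower genes were the larger part there too. DESeq2 with the block called 0, gave no adjusted p for 227 of the 265 and had 2 at that level of p. Library by library, the groups did not overlap for 20 DT lncRNAs that were lower (7.55%) and 5 that were higher (1.89%). Over all tested genes these shares were 6.63% and 4.89%. The 5 that were higher are SLC2A1-DT, ITPRID2-DT, SLC20A1-DT, DPY19L3-DT and CTTN-DT.

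MRNIP-DT (ENSG00000245317, 2 merged exons, chromosome 5, 179859013 to 179861283, strand +) showed the largest difference. Its partner MRNIP encodes a protein that binds the MRE11-RAD50-NBN complex at DNA double-strand breaks. MRNIP-DT was at 3.35, 1.92 and 2.27 CPM in LMB replicates 1, 2 and 3 and at 1.38, 1.402 and 1.60 CPM with auxin. Every LMB+auxin library lay below every LMB library, and LMB replicate 1 stood well above the rest. The log2 fold change was -0.77 ± 0.23 (SE), 1.71-fold lower, with an unadjusted p of 0.00762 and an adjusted p of 0.954 by edgeR without the block. With the block edgeR gave -0.76 and an adjusted p of 0.00218. Without replicate 1 of both groups the value was -0.48 and the adjusted p 0.246, so this call rests on replicate 1. MRNIP was at 112, 115 and 108 CPM without auxin and at 105, 117 and 107 CPM with auxin, and the groups overlapped (-0.02 ± 0.07). Annotated exons of the 2 genes share 194 bases, and the values of MRNIP-DT rest on counts of 41 to 97 per library. All of MRNIP-DT lies inside the annotated span of MRNIP, 179835133 to 179862173 over all isoforms. Reads appear not to have been separated by strand in counting, although the library kit was stranded. How far reads of MRNIP entered the counts of MRNIP-DT was not tested.

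BTG1-DT (ENSG00000245904, 6 merged exons, chromosome 12, 92145573 to 92226557, strand +) was lower together with its partner. BTG1 encodes an antiproliferative protein that recruits the CCR4-NOT deadenylase to mRNA. BTG1-DT was at 3.80, 3.52 and 3.41 CPM without auxin and at 2.09, 3.22 and 2.10 CPM with auxin. The groups did not overlap, but LMB+auxin replicate 2 lay close to the LMB libraries. The log2 fold change was -0.54 ± 0.19, with an adjusted p of 0.954 by edgeR without the block and 0.0120 with it. In the block fit the adjusted p was 0.226 without replicate 1 and 0.228 without replicate 3. BTG1 was at 30.6, 35.8 and 31.1 CPM without auxin and at 26.4, 26.9 and 24.2 CPM with auxin, again without overlap. Its log2 fold change was -0.33 ± 0.09, and its adjusted p with the block was 1.3e-04, but this size was under the 1.3-fold limit. Exons of the pair share 274 bases.

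CEBPA-DT (ENSG00000267296, 1 exon, chromosome 19, 33302857 to 33305054, strand +) shared no exonic base with another tested gene. CEBPA encodes the transcription factor C/EBP alpha, which drives differentiation in several tissues. CEBPA-DT was at 1.56, 1.85 and 1.39 CPM without auxin and at 1.18, 0.889 and 0.973 CPM with auxin, without overlap. The log2 fold change was -0.65 ± 0.21, with an adjusted p of 0.954 by edgeR without the block and 0.0439 with it. The call did not hold in the block fit without any 1 of the 3 replicate pairs, where the adjusted p was 0.0743, 0.369 and 0.177 without pairs 1, 2 and 3. The counts behind it were low, at 26 to 58 per library. CEBPA was at 8.78, 8.88 and 7.87 CPM without auxin and at 6.67, 7.08 and 7.09 CPM with auxin, also without overlap. Its log2 fold change was -0.29 ± 0.11, with an adjusted p of 0.0597 in the block fit.

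SLC2A1-DT (ENSG00000227533, 5 merged exons, chromosome 1, 42959049 to 42996814, strand +) had the largest positive difference. SLC2A1 encodes the glucose transporter GLUT1. SLC2A1-DT was at 3.42, 2.21 and 2.69 CPM without auxin and at 3.57, 3.66 and 3.61 CPM with auxin. Every LMB+auxin library lay above every LMB library, though LMB replicate 1 was close to them. The log2 fold change was 0.39 ± 0.17, and it was not called in either edgeR fit (adjusted p 0.954 without the block and 0.0836 with it). With replicate 1 of both groups left out, the value in the block fit was 0.56 and the adjusted p 0.0369. SLC2A1 was at 284, 317 and 305 CPM without auxin and at 310.3, 373 and 339 CPM with auxin. It was higher in 3 of 3 pairs, although the groups overlapped, with a log2 fold change of 0.18 ± 0.08 and an adjusted p of 0.00870 in the block fit, under the 1.3-fold limit. The exons of this pair do not overlap.

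**Figure D2:**
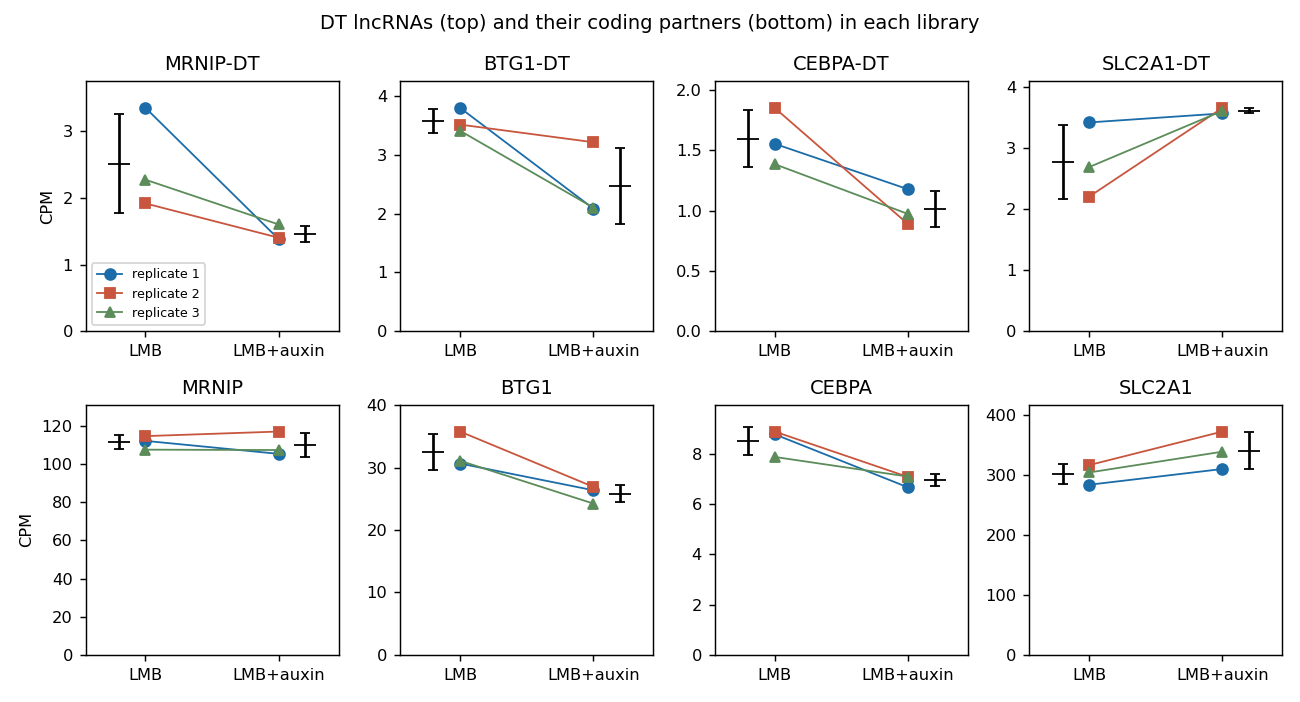
CPM (vertical axis, starting at 0) of 4 DT lncRNAs (top) and their coding partners (bottom) in the 6 libraries, with lines joining the same replicate number and black marks for the mean ± SD of each group (n = 3). MRNIP-DT is lower in all 3 pairs while MRNIP stays at 105 to 117 CPM, and in the other columns the DT lncRNA and its partner differ in the same direction.

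The next DT lncRNAs by p stayed outside the call in both edgeR fits. Among those that were lower, MAN1B1-DT was at 5.29, 3.87 and 3.85 CPM without auxin and at 3.00, 3.76 and 3.01 CPM with auxin. MAN1B1 encodes a mannosidase that trims glycans on misfolded proteins in the endoplasmic reticulum. The log2 fold change of MAN1B1-DT was -0.41 ± 0.17 and its adjusted p with the block was 0.0514. ATP6V0D1-DT, beside a subunit gene of the vacuolar proton pump, had 1.85 ± 0.131 CPM without auxin and 1.35 ± 0.168 CPM with auxin (log2 fold change -0.45). CSGALNACT2-DT, beside a gene of chondroitin sulfate synthesis, had 1.46 ± 0.0556 and 1.07 ± 0.0950 CPM (log2 fold change -0.44). For these 3 DT lncRNAs the groups did not overlap. The groups of their partners overlapped, with log2 fold changes of -0.07, -0.03 and -0.07.

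Among those that were higher, ITPRID2-DT, CTTN-DT, SLC20A1-DT and DPY19L3-DT had groups that did not overlap, and CHUK-DT was higher in 3 of 3 pairs with overlapping groups. Their partners encode an anchor of inositol trisphosphate receptors, the actin regulator cortactin, a phosphate transporter, a C-mannosyltransferase and the kinase IKK alpha. ITPRID2-DT was at 3.35, 3.52 and 3.58 CPM without auxin and at 5.08, 3.87 and 3.92 CPM with auxin, so replicate 1 made most of its log2 fold change of 0.30. The others had log2 fold changes of 0.17 to 0.25, and adjusted p-values with the block of 0.143 to 0.309. Their partners had log2 fold changes of 0.02 to 0.10.

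The partners as a class did not share the lower levels of the DT lncRNAs. Over the 262 partner genes the median log2 fold change was 0.04, with 173 higher and 89 lower. No partner was called by edgeR in either fit. Before adjustment, p was under 0.05 for 10 partners in the fit without the block (3.82%, against 4.37% of all tested genes) and for 52 in the fit with it (19.8%, against 19.9%), and DESeq2 called 0 as well. With the block, 14 partners (5.34%) passed the adjusted p without regard to size, against 4.39% of all tested genes, 9 of them lower, with log2 fold changes from -0.33 to 0.18. Examples chosen after their values were seen are PHLDA1 (-0.32 with the block, adjusted p 4.0e-07) and HSPA5, which encodes the chaperone BiP (0.18, adjusted p 0.00587). PHLDA1 was at 136, 165 and 136 CPM without auxin and at 114, 122 and 112 CPM with auxin. PHLDA1-DT was at 5.87, 5.91 and 6.35 CPM without auxin and at 5.72, 6.26 and 5.96 CPM with auxin, and its log2 fold change was -0.02 ± 0.11.

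Further pairs, named after their values were seen, are those of HSPA5-DT and NUP50-DT, whose ratios to their partners were not called in either fit. HSPA5-DT was at 3.08, 2.24 and 2.19 CPM without auxin and at 2.02, 2.19 and 2.13 CPM with auxin. LMB replicate 1 was the highest, and the other libraries lay close together (log2 fold change -0.23 ± 0.18). The groups did not overlap, but LMB replicate 3 and LMB+auxin replicate 2 both round to 2.19 CPM. HSPA5 was at 409, 599 and 487 CPM without auxin and at 479.5, 709.7 and 508 CPM with auxin, higher in 3 of 3 pairs. Its groups overlapped, and its unadjusted p was 0.325 by edgeR without the block. NUP50-DT, beside the gene of another nuclear basket protein, was at 14.1, 14.8 and 13.7 CPM without auxin and at 12.96, 12.7 and 12.7 CPM with auxin. The groups did not overlap, the log2 fold change was -0.15 ± 0.09 and the adjusted p with the block was 0.275. NUP50 itself had overlapping groups and a log2 fold change of -0.03 ± 0.09.

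Pair by pair, the DT lncRNA had the lower log2 fold change in 191 of 263 pairs (72.6%), and the median difference was -0.10. In 113 pairs the DT lncRNA was lower and the partner higher, in 71 both were lower, in 61 both were higher, and in 18 the DT lncRNA was higher and the partner lower. Both genes of a pair differed in the same direction in 132 pairs, or 50.2%. Most DT lncRNAs were lower and most partners higher, so this share is not to be read against an even split. Across pairs the fold changes had a Pearson correlation of 0.23 and a Spearman correlation of 0.194, given as a description, since all points share the same 6 libraries. Leaving out LMB replicate 1 moved the median difference to -0.03, and leaving out LMB replicate 2 moved it to -0.17.

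**Figure D3:**
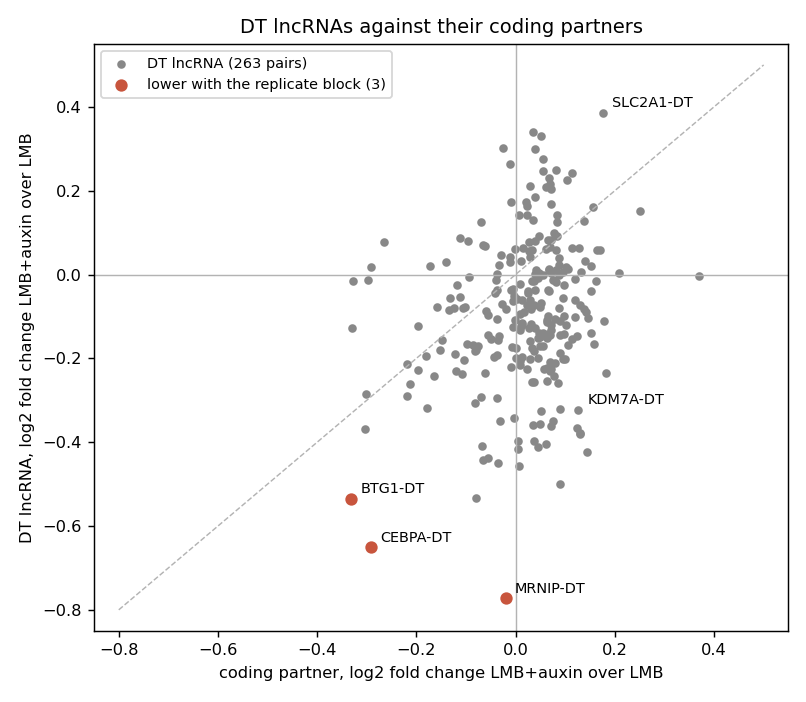
Each point is 1 of 263 pairs, with the log2 fold change (LMB+auxin over LMB, edgeR without the block) of the partner on the horizontal axis and of the DT lncRNA on the vertical axis, and the dashed line marks equal values. Most points lie below the dashed line (191 of 263), the vertical spread is wider than the horizontal one, and the 3 DT lncRNAs called with the block (red) lie at the bottom.

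Whether a DT lncRNA moved differently from its partner was tested on the log2 ratio of the pair in each library, with limma over 1707 head-to-head pairs of tested genes. Without the block limma called 0 pairs (0%). Before adjustment, p was under 0.05 for 68 pairs, of which 10 were DT pairs. With the block limma called 9 of the 1707 pairs (0.527%), of which 1 was a DT pair. This was MRNIP-DT relative to MRNIP, with a ratio change of -0.70 ± 0.17 and an adjusted p of 0.0416. Without the block its adjusted p was 0.983. At an unadjusted p under 0.05 the block fit held 16.3% of DT pairs (43, of which 37 had the DT lncRNA lower) and 16.6% of all pairs. The median ratio change was -0.10 over DT pairs, with 75.3% below 0. Over 452 other head-to-head pairs of a lncRNA and a coding gene it was -0.07, with 64.4% below 0. In the 913 pairs of coding genes, alphabetical order of the symbols set which gene was divided by which. The direction of their ratio is therefore arbitrary, and its median of 0.01, with 47.0% below 0, is no comparison for the direction in lncRNA pairs.

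Without the block, the pairs of KDM7A-DT, MRNIP-DT, ADM-DT and SUV39H2-DT had the smallest p-values among DT pairs. KDM7A and SUV39H2 encode enzymes that remove and add methyl groups on histone H3, and ADM encodes the vasodilator peptide adrenomedullin. KDM7A-DT was at 4.39, 5.82 and 4.24 CPM without auxin and at 3.30, 5.06 and 3.20 CPM with auxin. KDM7A was at 43.98, 69.4 and 52.0 CPM without auxin and at 54.4, 75.0 and 51.2 CPM with auxin. Both genes were highest in replicate 2 of each group, so their ratio varied less than either level, and it was lower in LMB+auxin by 0.47 ± 0.12 (log2, block adjusted p 0.0567). The ratio change was -0.33 ± 0.09 for ADM-DT and -0.55 ± 0.17 for SUV39H2-DT, with block adjusted p-values of 0.0648 and 0.103. The ratios of KDM7A-DT, ADM-DT and SUV39H2-DT were not called in either fit.

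Levels of different genes were compared as mean CPM per kilobase of exon. Over the 263 pairs the median was 1.47 CPM per kb for DT lncRNAs and 8.48 CPM per kb for their partners, and a DT lncRNA had a median of 17.8% of its partner's level. Across the 263 pairs, measured in the same 6 libraries, the 2 levels had a Spearman correlation of 0.0852, given as a description. In 33 pairs the DT lncRNA lay above its partner, and in 17 of these its exons overlapped those of another tested gene. The highest levels were 54.95 for CTDSPL2-DT, 34.2 for MVP-DT, 32.6 for USP34-DT, 26.2 for STX5-DT, 21.5 for H2AZ1-DT and 17.2 CPM per kb for VPS39-DT. All 6 overlap exons of another tested gene. USP34-DT shares 690 exonic bases with XPO1, the gene of CRM1 itself, MVP-DT shares 2831 bases with genes that include MAZ, PRRT2 and PAGR1, and STX5-DT shares 517 bases with WDR74. The start of H2AZ1-DT lies 57796 bases from that of H2AZ1. The log2 fold changes of these 6 ran from -0.08 to 0.07, with overlapping groups in each.

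**Figure D4:**
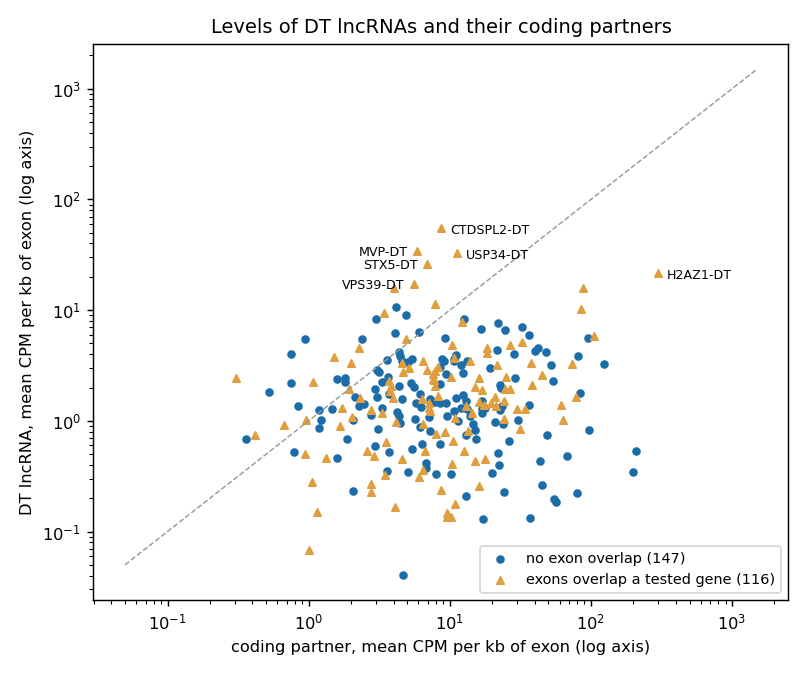
Mean CPM per kilobase of exon over the 6 libraries for the partner (horizontal axis) and the DT lncRNA (vertical axis) of 263 pairs, both on log axes, with triangles for the 116 DT lncRNAs whose exons overlap those of another tested gene and a dashed line of equal levels. Most points lie below the line, and the 6 highest DT lncRNAs, which are labelled, are all triangles.

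Counts of overlapping genes are uncertain, since reads appear not to have been separated by strand in counting, although the library kit was stranded. This was inferred from the following check, which used exons of a later annotation than that used for counting. For genes lying inside exons of an abundant gene, the count per base was a median of 1.4 times that of the outer gene over 203 pairs on opposite strands and 0.504 times over 91 pairs on the same strand. Exons of 116 DT lncRNAs overlapped those of another tested gene, 72 with the partner and 60 with a different gene. The median log2 fold change of these 116 was -0.06, with 63.8% lower. For the 149 without overlap it was -0.13, with 74.5% lower. By mean CPM, the median was -0.14 in the 88 lowest, -0.12 in the 89 between and -0.04 in the 88 highest. Single-exon DT lncRNAs had a median of -0.12 (77.4% of 84 lower), and those with 2 or more exons had -0.08 (66.3% of 181 lower). With starts 0 to 1000 bases apart the median was -0.08 (68.0% of 225 lower), and with starts further apart or crossed it was -0.12 (79.5% of 39 lower). The difference between these subgroups was not tested.

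Sequence downstream of the start differed between DT lncRNAs and coding genes. In the first 1000 bases of the sense strand, introns included, the polyadenylation signal AATAAA occurred at least once in 104 of 265 DT lncRNAs (39.2%). The window had this length whatever the length of the gene, so in a short gene it can take in the gene's own end and bases beyond it. It occurred in 17.2% of partners and in 18.1% of all 12663 tested coding genes. The strong 5′ splice site GTAAGT occurred in 18.9%, 14.9% and 15.6%. The windows also differed in base composition, with a median GC content of 51.9% in DT lncRNAs and 60.2% in partners, and its part in the difference was not tested. The median log2 fold change was -0.09 both in the 104 DT lncRNAs with AATAAA and in the 161 without it.

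**Figure D5:**
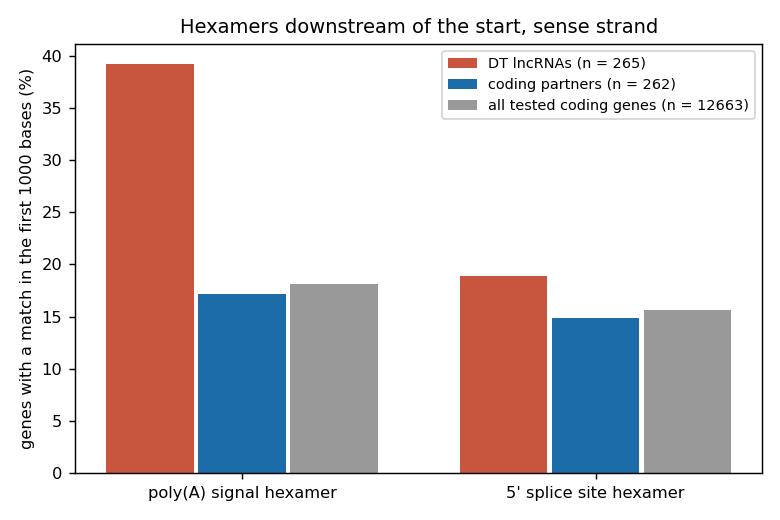
Share of genes (vertical axis, %) with at least 1 match to the polyadenylation hexamer or the 5′ splice site hexamer in the first 1000 bases downstream of the start, for DT lncRNAs, their partners and all tested coding genes. The polyadenylation hexamer is found in 39.2% of DT lncRNAs and in 17.2% of partners, while the splice site hexamer differs by less.

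Promoter motifs were compared with those of other head-to-head pairs. In 300 bases centred between the starts of 224 DT pairs, a GC box was found in 74.1% and an ETS core in 42.4%, beside 74.6% and 42.1% of 1282 other pairs. A TATA box was found in 3.12% of DT pairs, 4.45% of other pairs and 7.52% of the promoters (250 bases before to 50 after the start) of 16748 tested genes. The CCAAT box was found in 34.8% of DT pairs, the NRF1 core in 19.6% and the cyclic AMP response element in 5.36%, beside 39.4%, 17.7% and 4.13% of other pairs. The pairs of CEBPA and SLC2A1 belong to the small share with a TATA box. The TATA box of the BTG1 pair reaches outside the centred 300 bases, so that pair was not counted in the share. Where starts lie far apart, the centred bases leave out those next to the starts. The TATA shares of pairs and of single promoters thus come from unlike windows.

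Factors that act on divergent and other short-lived nuclear RNAs were followed as a list of 28 genes, all tested. They comprise 11 exosome subunits and nucleases, 6 adaptors that target RNAs to the exosome, and 11 factors linked to cap binding or to early termination and its control. None of the 28 was called by edgeR in either fit. Before adjustment, p was under 0.05 for 1 of them (3.57%) in the fit without the block and for 10 (35.7%) in the fit with it, against 4.37% and 19.9% of all tested genes. Of the list, 17 were higher and 11 lower, with log2 fold changes from -0.29 for PCF11 to 0.16 for ZCCHC8. PCF11, a subunit of the cleavage and polyadenylation machinery that promotes early termination, was at 131, 123 and 131 CPM without auxin and at 119, 95.1 and 99.9 CPM with auxin. It was lower in 3 of 3 pairs without overlap of the groups, and its adjusted p was 5.1e-06 in the block fit, under the 1.3-fold limit. The median over the 11 exosome genes was 0.03 and that over the 6 adaptors was 0.02.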

How the data were processed

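RNA-seq was analysed in 6 libraries of tagged DLD-1 cells, 3 LMB and 3 LMB+auxin, grouped by the treatment on their labels and described in the study as independent biological replicates. The authors depleted rRNA, prepared stranded TruSeq libraries, sequenced paired ends and aligned the reads to GRCh38. The submitters' processing notes list CASAVA 1.8.2, STAR 2.6.1c and featureCounts 1.5.2. The deposited table holds whole-number counts for each Ensembl gene, which the authors did not normalize. The strand setting of counting is not given in the sources used here. Of 58051 identifiers, 56948 (98.1%) had a symbol in GENCODE 44, a later release than that used for counting, from which coordinates and exons were taken. Sequences were read from GRCh38.

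Genes with CPM above 1 in at least 3 libraries went into a quasi-likelihood fit in edgeR 4.0.16 (TMM scaling, robust) under R 4.3.3. A call needed a Benjamini-Hochberg adjusted p under 0.05 over all tested genes and a 1.3-fold difference. CPM values are TMM-scaled. The log2 ratio of each head-to-head pair (prior count 2, starts within 2000 bases or a DT symbol) was tested with limma 3.58.1. Fits were checked on simulated counts. Library totals set the precision, and DT lncRNAs had a median of 2.91 CPM. Deviations from group means correlated between same-numbered libraries (0.531, 0.691 and 0.273 over 16974 genes). Between libraries with different numbers the correlations ran from -0.573 to 0.146. The numbers were therefore taken to pair the samples, and edgeR and limma were also run with a replicate block. The labels do not state this pairing, which was inferred from the same counts and is weakest for replicate 3. The authors used DESeq2, here an alternative (version 1.42.0).

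Genes named are those called in either edgeR fit, the 6 with the smallest p in each direction, the 6 highest per kilobase, the 4 pair ratios with the smallest p, and their partners. The members, the gene lists and these rules were chosen with earlier results of these data known. Alternatives tried were other scalings, no low-count filter, DESeq2, the block, leaving out each library, leaving out overlapping or low genes and, for ratios, another prior count of 0.5 and starts within 500 bases.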

Additional observations from a re-analysis of the deposited data

How the results depend on the processing

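The count of called DT lncRNAs was 0 under every planned setting except the replicate block, which gave 3, and in pair ratios the block gave 9 calls in place of 0. With the block, all tested genes gave 202 calls in place of 1 (51 higher and 151 lower). Without the block, DESeq2 gave 11, no filter on low counts 39, library size alone 0, and leaving out 1 library 0 to 5. Chosen after seeing the data, DESeq2 with the replicate block gave 30, but no adjusted p for 227 DT lncRNAs. Also chosen after seeing the data, the replicate block without replicate 1, 2 or 3 of both groups gave 140, 160 and 137 calls over all genes and 2, 3 and 1 over DT lncRNAs. These were SLC2A1-DT and ZNF778-DT (-0.59) without replicate 1, MRNIP-DT, BTG1-DT and MAN1B1-DT without replicate 2, and MRNIP-DT without replicate 3, ZNF778-DT being named after its value was seen. Partners gave 1 call without replicate 1 (BTG1, -0.38) and 1 without replicate 3 (TRMT61A, -0.41). The replicate block changed no other call among the named genes. The cause of these differences was not tested, apart from the fewer samples in fits that leave libraries out.

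The median log2 fold change of DT lncRNAs stayed below 0 in all settings, from -0.15 to -0.02 with 1 library left out and -0.09 with the block. It was -0.04 over the 69 with a mean of at least 5 CPM in both genes. The partners' median ran from 0.02 to 0.05 with 1 library left out (0.0202 to 0.0457) and was 0.0153 in the replicate block without replicate 1, and the median difference ran from -0.17 to -0.03. Of 21 named DT lncRNAs, 18 never changed direction. With 1 library left out, H2AZ1-DT ran from -0.0947 to 0.044, STX5-DT from -0.0737 to 0.101 and USP34-DT from -0.0963 to 0.0276. With the block, H2AZ1-DT was 0.0361 without replicate 1 and STX5-DT was -0.0076 without replicate 2. Partners that changed direction with 1 library left out were MRNIP (-0.0661 to 0.00926), ITPRID2 (-0.0378 to 0.0912), CTTN (-0.0157 to 0.0677), ATP6V0D1 (-0.111 to 0.0528), CSGALNACT2 (-0.196 to 0.0846), MAN1B1 (-0.13 to 0.0119), VPS39 (-0.0144 to 0.162), STX5 (-0.0339 to 0.166), USP34 (-0.00303 to 0.0742), MVP (-0.351 to 0.0123) and KDM7A (-0.0619 to 0.333). In the replicate block without replicate 1, MRNIP was 0.0132 and MAN1B1 was 0.0288. Low counts limit single DT lncRNAs, which had a median of 2.91 CPM. Over all tested genes, the BCV, the relative spread between replicates beyond counting, was 0.0989 without the block and 0.0406 with it. It was not estimated for DT lncRNAs alone.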
